A study of Mus musculus with 12 samples.

Results

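Il31ra, Osmr, Cysltr2, Lpar3, Lpar5, Hrh1 and F2rl1 encode receptors by which small sensory neurons of the dorsal root ganglion are known to read itch-provoking and inflammatory signals from the skin. They are 7 of the 35583 genes with a listed transcript and were chosen by name, with earlier results of these data known. RNA was taken from ganglia of YAC Q84 mice, which carry a human ATXN3 gene with an expanded CAG repeat on a yeast artificial chromosome, as a model of spinocerebellar ataxia type 3. The Q84 group held 1 male and 5 female libraries, the wild-type (WT) group 3 male and 3 female libraries, and all mice were 24 weeks old. WT is the label for mice without the transgene, and no source used here gives the zygosity of the Q84 mice. The labels number the libraries as replicates without saying whether each is a separate animal or a pool, so p-values measure only the spread between these libraries, which may be technical.

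Each library held between 66490481 and 86891563 estimated counts. A 1000-base transcript of mouse Atxn3 served as the check of the labels, though whether its reads come from the human transgene was not tested. It was at 73.8 TPM (a share of all transcripts, scaled to length) in the Q84 male and at 62.7 to 79.4 TPM in Q84 females 1 to 4, against 0 to 0.285 TPM in 5 WT libraries. The library labelled Q84 female 5 had 0.0612 TPM. The library labelled WT female 2 had 34.0 TPM, which is below the range of those Q84 libraries. At a cut of 10 TPM both libraries go against their labels. They are shown apart below, no library was moved to another group, and the test of each receptor between genotypes is given both for the other 10 libraries and for all 12 as labelled. Genes that all neurons use, such as Rbfox3, Snap25 and Tubb3, summed to 7479 to 8039 CPM (counts scaled to library size and composition) in the 5 other Q84 libraries and to 7803 to 9551 CPM in the 5 other WT libraries.

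The receptors belong to a pair of signalling families. Il31ra and Osmr encode the subunits that together bind interleukin 31, a T-cell cytokine that provokes itch, and signal through Janus kinases and STAT proteins. The other members are G protein-coupled receptors that act through Gq and related G proteins, phospholipase C and calcium. Their ligands are cysteinyl leukotrienes (Cysltr2), lysophosphatidic acid (Lpar3 and Lpar5) and histamine (Hrh1), while F2rl1, known as PAR2, is switched on when proteases such as tryptase cut its outer end. In mouse ganglia, Il31ra, Osmr and Cysltr2 are known as markers of the NP3 class of itch neurons, which also makes the peptides Nppb and Sst, and Lpar3 and Lpar5 as genes of non-peptidergic skin neurons.

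Promoter windows of 250 bases upstream of a transcript start, from RefSeq on the GRCm38.p6 build, were found for 6 of the 7 genes. Those of Il31ra, Lpar3 and Lpar5, the members with the largest differences between genotypes, are printed 5′ to 3′ on the gene's strand, with matches to a RUNX motif (TGTGGT, on either strand) or a STAT motif (TTCNNNGAA, its own reverse complement) in capitals. RUNX was searched because Runx1 is known to shape non-peptidergic neurons, and STAT because it is the factor of the cytokine receptors. The Il31ra window (chr13:112580663-112580912, minus strand) holds 1 STAT match.
Il31ra: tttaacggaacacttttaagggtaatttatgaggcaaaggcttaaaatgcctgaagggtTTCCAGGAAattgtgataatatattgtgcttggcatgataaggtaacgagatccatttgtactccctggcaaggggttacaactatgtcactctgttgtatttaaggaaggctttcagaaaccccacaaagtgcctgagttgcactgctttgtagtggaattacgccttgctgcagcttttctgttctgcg
The Lpar3 window (chr3:146220711-146220960, plus strand) holds neither motif.
Lpar3: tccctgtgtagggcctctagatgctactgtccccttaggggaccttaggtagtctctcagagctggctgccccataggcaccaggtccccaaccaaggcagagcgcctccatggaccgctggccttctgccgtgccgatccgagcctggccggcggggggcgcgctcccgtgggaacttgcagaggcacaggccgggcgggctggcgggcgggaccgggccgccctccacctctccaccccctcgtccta
Lpar5 has 2 windows, 1 for each listed transcript. The first (chr6:125067670-125067919, plus strand) has a RUNX match that begins 140 bases before the start, and the second (chr6:125071085-125071334, plus strand) has matches that begin 221 and 41 bases before it.
Lpar5, first start: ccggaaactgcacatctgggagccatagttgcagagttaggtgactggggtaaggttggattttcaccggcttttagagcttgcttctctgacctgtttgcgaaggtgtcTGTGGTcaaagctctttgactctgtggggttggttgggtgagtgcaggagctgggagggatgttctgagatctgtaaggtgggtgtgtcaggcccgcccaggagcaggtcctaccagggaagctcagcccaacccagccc
Lpar5, second start: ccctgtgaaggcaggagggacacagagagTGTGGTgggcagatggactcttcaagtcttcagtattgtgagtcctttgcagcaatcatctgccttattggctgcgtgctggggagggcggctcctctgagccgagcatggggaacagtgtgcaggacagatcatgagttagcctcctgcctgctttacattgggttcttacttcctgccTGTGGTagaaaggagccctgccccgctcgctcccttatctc
Of 32851 promoter windows of this length, 14.0% hold the RUNX letters and 7.02% the STAT letters. Among the 10 windows of the 6 genes, 2 and 1 did, and a match is a description of the letters, not a site. For F2rl1 no sequence is printed.

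Of the receptors, 5 were lower in Q84 ganglia once the 2 libraries that go against their labels were set apart. Il31ra, Lpar3 and Lpar5 stood at 30.3 to 33.6% of the WT mean, Cysltr2 and Hrh1 at 54.3 to 57.1%. In bulk ganglia, fewer cells of a type and less RNA per cell cannot be told apart. Over these 10 libraries, 5 of the 7 members were called lower and none higher (edgeR quasi-likelihood test with sex as a covariate, Benjamini-Hochberg adjusted p under 0.05). The same rule called 6.45% of all genes tested, 4.93% lower and 1.52% higher. Because the members were chosen with earlier results of these data known, these shares are a reference and not a test of the set. The median log2 fold change of the members was -0.88, against 0.01 over all genes. With all 12 libraries as labelled, 0 of the 7 passed, where the rule called 0.0053% of all genes. At an unadjusted p under 0.05, 6 of the 7 were lower there, all but Osmr, as were 8.56% of all genes. DESeq2 called 3 of them lower (Cysltr2, Lpar5 and F2rl1) over the 12 libraries, beside 2.41% of all genes, and limma-voom called 0, beside 0.0053%.

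**Figure D1:**
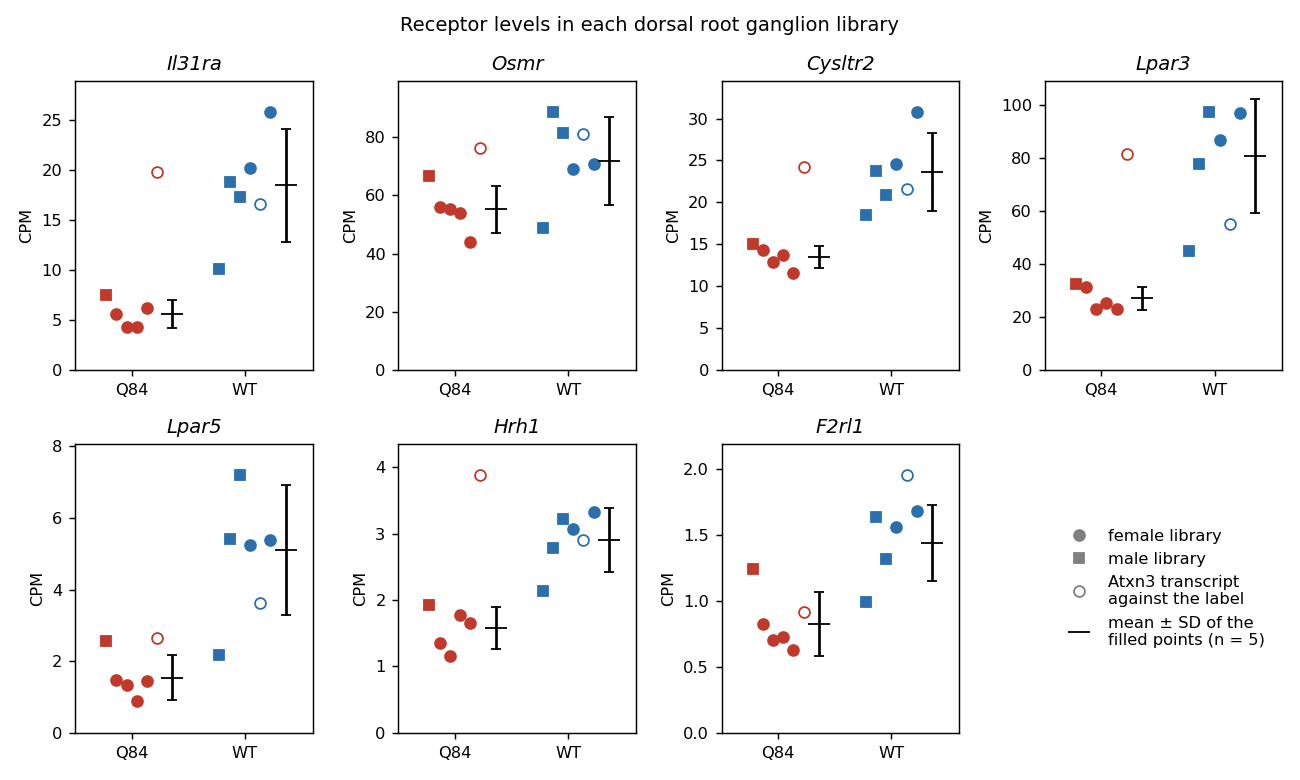
Level of each receptor in CPM (vertical axes, each from 0) by library, Q84 left and WT right; squares are male and circles female libraries, open circles the 2 libraries whose Atxn3 transcript goes against the label, and bars the mean ± SD of the 5 filled points. Filled Q84 points lie below every filled WT point for Il31ra, Cysltr2, Lpar3 and Hrh1, and the open Q84 circle lies within or above the range of the filled WT points for all but F2rl1, near its lower end for Lpar5.

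Il31ra, the subunit particular to the interleukin 31 receptor, was at 7.55 CPM in the Q84 male and at 5.63, 4.27, 4.36 and 6.20 CPM in Q84 females 1 to 4, against 10.1, 18.8 and 17.3 CPM in the WT males and 20.2 and 25.8 CPM in WT females 1 and 3. Every one of these Q84 libraries was below every WT library. Of the 2 libraries set apart, Q84 female 5 had 19.8 CPM and WT female 2 had 16.6 CPM, both inside the range of the other WT libraries. The means were 5.60 ± 1.37 CPM in Q84 and 18.5 ± 5.65 CPM in WT (SD, n = 5 each), which is a log2 fold change of -1.75 ± 0.25 (SE, edgeR adjusted p = 0.00202). With all 12 libraries it was -1.27 ± 0.40 (edgeR adjusted p = 0.183).

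Osmr, the subunit that Il31ra shares with the receptor of oncostatin M, had the smallest fold change. It was at 66.6 CPM in the Q84 male and at 55.9, 55.4, 54.0 and 44.0 CPM in Q84 females 1 to 4, against 48.8, 88.5 and 81.5 CPM in the WT males and 69.1 and 70.8 CPM in WT females 1 and 3. The groups overlapped through WT male 1, the lowest WT library, which lay below 4 of the Q84 libraries. Means were 55.2 ± 8.05 CPM in Q84 and 71.7 ± 15.1 CPM in WT (SD, n = 5 each). The log2 fold change of -0.31 ± 0.16 (SE) did not pass (edgeR adjusted p = 0.302), and neither did the value of -0.30 ± 0.16 over 12 libraries (edgeR adjusted p = 0.425). Without WT male 1 the 10-library value was -0.40 and passed (edgeR adjusted p = 0.00942).

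Because the 2 subunits act together, their ratio within a library is described. It and the 2 ratios given further on were chosen after the values were seen, so no p-value is given for them. The log2 ratio of Il31ra over Osmr was -3.14 in the Q84 male and -3.31, -3.70, -3.63 and -2.83 in Q84 females 1 to 4, against -2.27, -2.23 and -2.23 in the WT males and -1.77 and -1.46 in WT females 1 and 3. The groups did not overlap, and the mean ratio was -3.32 ± 0.36 in Q84 and -1.99 ± 0.36 in WT (SD, n = 5 each). The means differed by -1.33. Over 12 libraries, where Q84 female 5 had a ratio of -1.95 and WT female 2 of -2.29, the difference was -1.05.

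Cysltr2, a receptor of cysteinyl leukotrienes, was at 15.0 CPM in the Q84 male and at 14.3, 12.9, 13.8 and 11.6 CPM in Q84 females 1 to 4, against 18.5, 23.7 and 20.9 CPM in the WT males and 24.6 and 30.8 CPM in WT females 1 and 3. Again no Q84 library of these reached the lowest WT library, while Q84 female 5 stood at 24.3 CPM and WT female 2 at 21.6 CPM. The means of 13.5 ± 1.31 CPM in Q84 and 23.7 ± 4.64 CPM in WT (SD, n = 5 each) gave a log2 fold change of -0.86 ± 0.13 (SE, edgeR adjusted p = 0.00257). It was -0.66 ± 0.18 with all 12 libraries (edgeR adjusted p = 0.138). The log2 ratio of Il31ra over Cysltr2 averaged -1.30 ± 0.34 in Q84 and -0.40 ± 0.26 in WT (SD, n = 5 each), a difference of -0.90. Over 12 libraries that difference was -0.74.

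**Figure D2:**
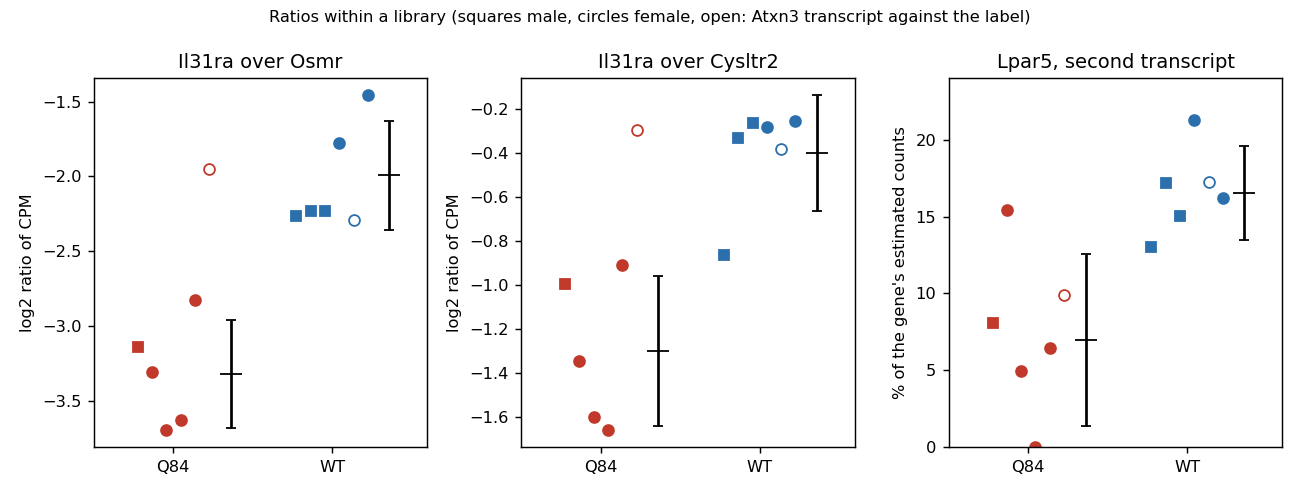
Ratios within a library, Q84 left and WT right, with squares for male, filled circles for female and open circles for the 2 libraries against their Atxn3 level; bars are mean ± SD of the 5 filled points. The vertical axes are the log2 ratio of CPM for Il31ra over Osmr and for Il31ra over Cysltr2, where filled Q84 points all lie below filled WT points, and the percent of Lpar5 estimated counts on its second transcript, where 1 Q84 female (15.4%) lies among the WT libraries.

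Lpar3, a receptor of lysophosphatidic acid that couples to Gi and Gq, was the member with the highest level per length in WT ganglia. It was at 32.5 CPM in the Q84 male and at 31.3, 23.1, 25.5 and 23.3 CPM in Q84 females 1 to 4, against 45.0, 78.0 and 97.5 CPM in the WT males and 86.8 and 96.9 CPM in WT females 1 and 3. The 5 Q84 libraries were below all 5 WT libraries, and Q84 female 5 was at 81.6 CPM, with WT female 2 at 55.3 CPM. Means were 27.1 ± 4.45 CPM in Q84 and 80.8 ± 21.6 CPM in WT (SD, n = 5 each), and the log2 fold change was -1.59 ± 0.21 (SE, edgeR adjusted p = 0.00154). With all 12 libraries it was -1.13 ± 0.37 (edgeR adjusted p = 0.208).

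Lpar5, the other receptor of this lipid among the members, was far scarcer. It had 2.58 CPM in the Q84 male and 1.47, 1.33, 0.889 and 1.45 CPM in Q84 females 1 to 4, against 2.18, 5.42 and 7.20 CPM in the WT males and 5.25 and 5.39 CPM in WT females 1 and 3. The 4 Q84 females were below every WT library and the Q84 male was above WT male 1. Q84 female 5 had 2.65 CPM, below 4 of the 5 WT libraries, and WT female 2 had 3.62 CPM. Means of 1.54 ± 0.624 CPM in Q84 and 5.09 ± 1.81 CPM in WT (SD, n = 5 each) gave a log2 fold change of -1.63 ± 0.33 (SE, edgeR adjusted p = 0.0136). It was -1.41 ± 0.32 with all 12 libraries (edgeR adjusted p = 0.104). Without WT female 3 the 10-library call was lost at about the same size, -1.51 (edgeR adjusted p = 0.0562).

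The log2 ratio of Lpar5 over Lpar3 differed by -0.17 between Q84 and WT over 10 libraries and by -0.31 over 12. Lpar5 has 2 listed transcripts. The share of its counts on the second of them (ENSMUST00000140346, 1458 bases) was singled out after the values were seen, so no p-value is given for this share. It was 8.09% in the Q84 male and 15.4, 4.91, 0 and 6.45% in Q84 females 1 to 4, against 13.0, 17.2 and 15.0% in the WT males and 21.3 and 16.2% in WT females 1 and 3. Only Q84 female 1 lay inside the WT range. Q84 female 5 had 9.87% and WT female 2 had 17.2%. The mean share was 6.98 ± 5.61% in Q84 and 16.6 ± 3.08% in WT (SD, n = 5 each), a difference of -9.58 percentage points, and of -9.21 points over 12 libraries. The gene had only 61 to 590 estimated counts per library, and the split between its transcripts is an estimate. The 2 promoter windows printed for Lpar5 belong to the starts of these transcripts, the second lying 58 bases from the start of that transcript in the gene annotation.

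Hrh1, the histamine receptor of itch and allergy, was at 1.92 CPM in the Q84 male and at 1.36, 1.16, 1.78 and 1.66 CPM in Q84 females 1 to 4, against 2.13, 2.78 and 3.22 CPM in the WT males and 3.07 and 3.32 CPM in WT females 1 and 3. These groups did not overlap. Q84 female 5 had 3.88 CPM, more than any WT library, and WT female 2 had 2.90 CPM. With means of 1.58 ± 0.312 CPM in Q84 and 2.90 ± 0.478 CPM in WT (SD, n = 5 each), the log2 fold change was -0.88 ± 0.20 (SE, edgeR adjusted p = 0.0199), against -0.61 ± 0.27 with all 12 libraries (edgeR adjusted p = 0.335). The 10-library call was lost without WT female 1 (-0.84, edgeR adjusted p = 0.0597) and without WT female 3 (-0.78, edgeR adjusted p = 0.0970).

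F2rl1, the protease-activated receptor, was the scarcest member. It had 1.24 CPM in the Q84 male and 0.821, 0.703, 0.729 and 0.630 CPM in Q84 females 1 to 4, against 0.993, 1.63 and 1.32 CPM in the WT males and 1.56 and 1.68 CPM in WT females 1 and 3. The Q84 male lay inside the WT range and the 4 Q84 females below it. This was the member for which Q84 female 5, at 0.914 CPM, was inside the range of the other Q84 libraries, while WT female 2 had the highest value of all, 1.95 CPM. Means were 0.825 ± 0.243 CPM in Q84 and 1.44 ± 0.284 CPM in WT (SD, n = 5 each). The log2 fold change of -0.76 ± 0.24 (SE) did not pass over 10 libraries (edgeR adjusted p = 0.0853), nor did -0.85 ± 0.22 over 12 (edgeR adjusted p = 0.128). It passed over 10 libraries without WT male 1 (-0.85, edgeR adjusted p = 0.0265) and without Q84 male 1 (-1.17, edgeR adjusted p = 0.0238).

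**Figure D3:**
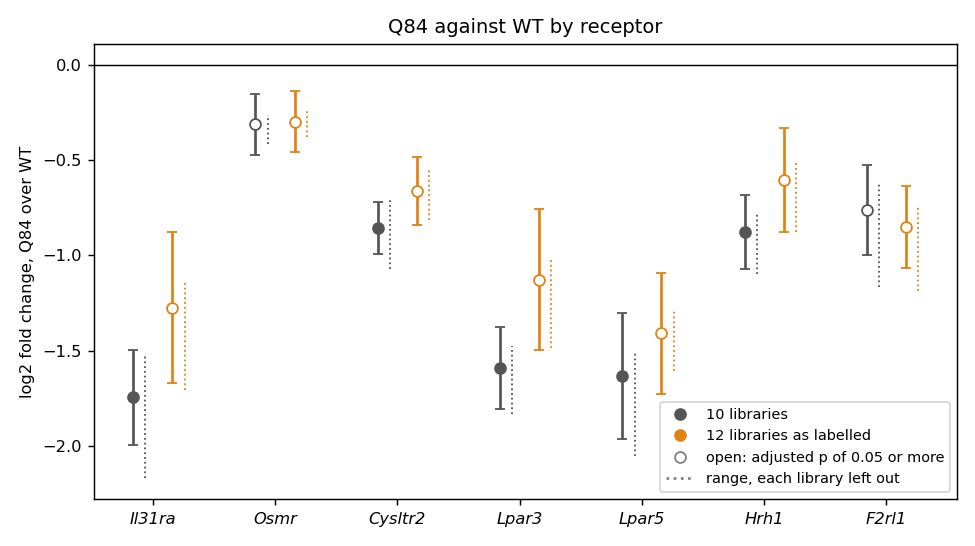
Log2 fold change of Q84 over WT for each receptor from edgeR, with bars of 1 SE, for the 10 libraries and for all 12 as labelled; filled points have an adjusted p under 0.05, and dotted lines span the values when each library is left out in turn. All values are below 0; Il31ra, Lpar3 and Lpar5 lie lowest, and Osmr lies nearest to 0, with -0.31 over 10 libraries and -0.30 over 12.

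For 4 of the 7 genes, Il31ra, Cysltr2, Lpar3 and Hrh1, every Q84 library was below every WT library among the 10, which held for 5.96% of all genes tested. With all 12 it held for 0 of the 7 and for 1.15% of all genes. WT male 1 was the lowest of the 6 WT libraries for all 7 genes, at 42.9 to 78.0% of the mean of the 5 WT libraries. Q84 male 1 was likewise the highest of the 5 Q84 libraries for all 7. Leaving out WT male 1 raised the members called to 7 and the genes called to 1978, while leaving out WT female 3 lowered them to 3 and 739. Q84 female 5 was above all 5 other Q84 libraries for 6 members and inside the range of the 5 WT libraries for 5, with Hrh1 above and F2rl1 below that range. WT female 2 was inside the range of the other WT libraries for 6 and above it for F2rl1.

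**Figure D4:**
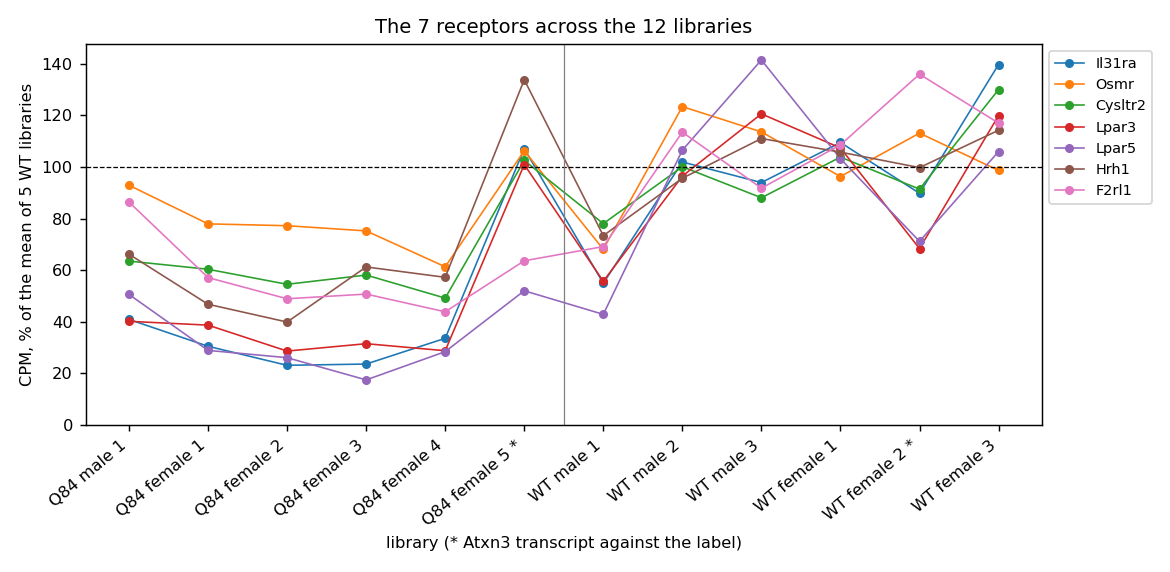
CPM of each receptor in each library as a percent of its mean over the 5 WT libraries whose Atxn3 transcript fits the label (dashed line at 100%), Q84 libraries left of the vertical line and WT libraries right; an asterisk marks the 2 libraries set apart. Q84 female 5 rises to about 100% or more for 5 receptors but stays at 52.0% for Lpar5 and 63.6% for F2rl1.

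Levels of different genes were compared per length, in TPM. In WT ganglia the order was Lpar3 with 50.6 ± 14.4 TPM, Cysltr2 with 34.8 ± 7.51, Osmr with 20.1 ± 4.78, Il31ra with 10.7 ± 3.08, Lpar5 with 6.07 ± 2.29, Hrh1 with 1.62 ± 0.325 and F2rl1 with 0.799 ± 0.171 TPM (SD, n = 5). From Cysltr2 down, each gene was above the next in all 12 libraries. Lpar3 was above Cysltr2 in 6 of 6 WT libraries and in 1 of 6 Q84 libraries, Q84 female 5. In the other 5 Q84 libraries the order of these 2 genes was turned, with 16.4 ± 3.46 TPM for Lpar3 and 20.2 ± 1.75 TPM for Cysltr2. Osmr followed them there at 14.8 ± 2.86 TPM, then Il31ra at 3.37 ± 1.24, Lpar5 at 1.82 ± 0.854, Hrh1 at 0.814 ± 0.169 and F2rl1 at 0.444 ± 0.159 TPM. These TPM are sums over all transcripts. For Cysltr2, a 557-base transcript with a retained intron made up 9.20 TPM in Q84 and 14.7 TPM in WT (means, n = 5 each). Its 2 protein-coding transcripts averaged 6.89 and 2.67 TPM in Q84, and 13.0 and 4.63 TPM in WT. In Q84 the turned order thus depends on counting the transcript with the retained intron. In both genotypes the mean place of Cysltr2 above Osmr depends on counting Cysltr2 transcripts that are not protein-coding. The main protein-coding transcript of Osmr averaged 13.9 TPM in Q84 and 18.8 TPM in WT.

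The design has 1 Q84 male, which limits a comparison of the sexes. None of the 7 members passed for sex over the 12 libraries (edgeR, all adjusted p of 1.00), where 0.0636% of all genes did. At an unadjusted p under 0.05 the count was also 0, and DESeq2 and limma-voom called 0 as well. Log2 fold changes of male over female lay between -0.31 for Il31ra and 0.30 for Lpar5. For Osmr, Lpar3, Hrh1 and F2rl1 the sign turned when single libraries were left out.

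Across libraries the members moved together to different degrees, given here as a description because libraries of 1 genotype share their level. Over the 12 libraries the Pearson correlation of log2 CPM between 2 members ran between 0.704 for Hrh1 with F2rl1 and 0.964 for Il31ra with Lpar3. With each genotype's mean taken out, over the 10 libraries, it ran between 0.46 for Osmr with Hrh1 and 0.837 for Lpar3 with Lpar5. Among the 5 Q84 libraries alone the lowest was 0.155, for Osmr with Hrh1, and Il31ra with Cysltr2 had 0.259. Among 13588 genes with a mean of 1 CPM or more, the gene most like Il31ra was Samd12 (r = 0.981, Spearman's rho 0.944), followed by A3galt2 (0.979) and Prkcq (0.979), which encodes a protein kinase C. Lpar3 was most like Tmem233 (r = 0.991, rho 0.965), then Tuft1 (0.982) and Ptgdr (0.982), a prostaglandin D2 receptor. Ptgdr and Samd12 were also among the 3 most like Cysltr2, at 0.969 and 0.968, after Moxd1 (r = 0.978, rho 0.972).

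Osmr had a different nearest gene, Scn11a (r = 0.942, rho 0.951), the sodium channel Nav1.9 of small nociceptors, then Reps2 (0.941) and Ythdf2 (0.938). Lpar5 was most like Ttl (r = 0.986, rho 0.993), an enzyme that adds tyrosine to tubulin, then Psen2 (0.976) and Zdhhc3 (0.975). Hrh1 was most like Fam169b (r = 0.971, rho 0.986), St6galnac5 (0.951) and Grhl3 (0.943). F2rl1 had the lowest likeness to any gene, led by Mettl7a1 (r = 0.916, rho 0.916), Prss35 (0.909) and Ypel1 (0.908). With the 2 libraries farthest from each member's median left out, the coefficient of the leading gene was between 0.877 for Mettl7a1 and 0.989 for Tmem233.

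Of 17 other receptors of the same families 15 were tested, and over the 10 libraries 1 was lower, 0 were higher and 14 did not pass (edgeR, adjusted p under 0.05), a share near the 6.45% of all genes called. DESeq2 called 1 higher (Lpar4) and 2 lower there, beside 3.09% of all genes higher and 7.24% lower. Their median log2 fold change was 0.19. The gene that passed was Lifr, the receptor of leukemia inhibitory factor and a relative of Osmr, with 350 ± 31.7 CPM in Q84 and 481 ± 54.4 CPM in WT (SD, n = 5 each), which is a log2 fold change of -0.49 (edgeR adjusted p = 0.0113), and of -0.26 over 12 libraries (edgeR adjusted p = 0.614). Its call was lost without WT female 3 (edgeR adjusted p = 0.0611) and without Q84 male 1 (edgeR adjusted p = 0.0525), and Q84 female 5 had 716 CPM. Il6st, the signalling subunit gp130 with which Osmr also pairs, had a log2 fold change of -0.59 that did not pass with edgeR (adjusted p = 0.146) and passed with DESeq2 (adjusted p = 0.0455), and Il6ra had 0.19. Without WT male 1, Il6st passed at -0.70 (edgeR adjusted p = 0.000582).

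Among the lipid receptors, log2 fold changes over 10 libraries that did not pass were 0.19 for Cysltr1, 0.60 and 0.13 for the leukotriene B4 receptors Ltb4r1 and Ltb4r2, and -0.06, 0.32, 0.66 and 0.36 for Lpar1, Lpar2, Lpar4 and Lpar6. Without WT male 1, Lpar4 passed as higher in Q84, at 0.81 (edgeR adjusted p = 0.00398), and DESeq2 called it over all 10 (adjusted p = 0.0407). Lpar1, a lysophosphatidic acid receptor also found on glia, had 125 ± 10.1 CPM in Q84 and 131 ± 8.45 CPM in WT (SD, n = 5 each). Of the histamine receptors, Hrh2 had -0.36 and Hrh3 had -1.10 (-0.51 over 12), the second at a level of 0.114 CPM in Q84 and 0.380 CPM in WT. The thrombin receptor F2r had 0.47 (0.24 over 12), F2rl2 had -0.24 and F2rl3 had 0.33. Oxgr1 and Hrh4 were too low to be tested. With all 12 libraries 0 of the 15 passed and DESeq2 called 0. At an unadjusted p under 0.05, 1 was higher and 1 lower, beside 8.56% of all genes lower and 14.3% in either direction.

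Of 24 genes for the ligands, or for enzymes that make or remove them, 21 were tested, and over 10 libraries 2 were lower, 0 higher and 19 did not pass. The share that passed was 9.52%, against 6.45% of all genes. Klk8, a serine protease known as neuropsin, had the larger difference, with 0.402 ± 0.067 CPM in Q84 and 2.36 ± 0.752 CPM in WT (SD, n = 5 each), which is a log2 fold change of -2.67 (edgeR adjusted p = 4.5e-05), and of -1.84 over 12 libraries (edgeR adjusted p = 0.144). Q84 female 5 had 1.77 CPM of it and WT female 2 had 0.674 CPM. Plpp2, a phosphatase of lysophosphatidic acid and related lipids, had a log2 fold change of -0.39 (edgeR adjusted p = 0.0330; -0.28 over 12 libraries), and its call was lost in 7 of 10 fits that left out a library, being kept without WT male 1, WT female 1 or Q84 female 1. Il31 was at 0 in all libraries, and Tpsab1 and Aoc1 were too low to be tested. Over 12 libraries 0 of the 21 passed (edgeR). At an unadjusted p under 0.05, 2 were higher and 5 lower, beside 8.56% of all genes lower and 14.3% in either direction. DESeq2 called 2 lower, beside 2.41% of all genes.

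Several genes of the signalling chains behind the receptors were lower. Of 12 genes of the cytokine chain, 3 were lower over the 10 libraries, 0 higher and 9 did not pass, with a median log2 fold change of 0.00. The share that passed was 25%, against 6.45% of all genes. Jak1, a kinase through which the interleukin 31 receptor signals, had 326 ± 30.3 CPM in Q84 and 471 ± 47.0 CPM in WT (SD, n = 5 each), which is a log2 fold change of -0.49 (edgeR adjusted p = 0.00630). The adaptor Shc1 had -0.71 (edgeR adjusted p = 0.00537), and Pik3r1, the regulatory subunit of phosphoinositide 3-kinase, had -0.71 (edgeR adjusted p = 0.000263). Over 12 libraries the log2 fold changes of Jak1, Shc1 and Pik3r1 were -0.35, -0.55 and -0.49. Over 12 libraries 0 of these 12 passed (edgeR). At an unadjusted p under 0.05, 1 was higher and 4 lower, beside 8.56% of all genes lower and 14.3% in either direction. DESeq2 called 1 lower, beside 2.41% of all genes.

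In the chain of the G protein-coupled receptors, the share that passed over the 10 libraries was 21.7%, against 6.45% of all genes. Of its 23 genes, 18 did not pass, 0 were higher and 5 were lower, with a median of -0.10. They were the G protein subunits Gnaq (-0.63, edgeR adjusted p = 0.0167) and Gna14 (-0.55, edgeR adjusted p = 0.00749), phospholipase Plcb3 (-0.69, edgeR adjusted p = 0.0105) and the kinases Prkca (-0.71, edgeR adjusted p = 0.00487) and Prkcd (-0.82, edgeR adjusted p = 0.0267). Plcb3, which is known to act below Hrh1 in itch neurons of mice, averaged 15.6 ± 2.32 CPM in Q84 and 24.2 ± 3.51 CPM in WT (SD, n = 5 each), and stood at 51.9 CPM in Q84 female 5. Over 12 libraries the log2 fold changes of Gnaq, Gna14, Plcb3, Prkca and Prkcd were -0.30, -0.43, -0.31, -0.40 and -0.65. Calls over 10 libraries were lost without WT female 3 for Gnaq (edgeR adjusted p = 0.0602), without Q84 male 1 for Gnaq (0.122), without WT female 1 for Plcb3 (0.0538) and in 7 of 10 such fits for Prkcd, which kept its call without WT male 1, WT male 3 or Q84 female 1. Over 12 libraries 0 of the 23 passed (edgeR). At an unadjusted p under 0.05, 2 were higher and 3 lower, beside 8.56% of all genes lower and 14.3% in either direction. DESeq2 called 3 lower, beside 2.41% of all genes.

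**Figure D5:**
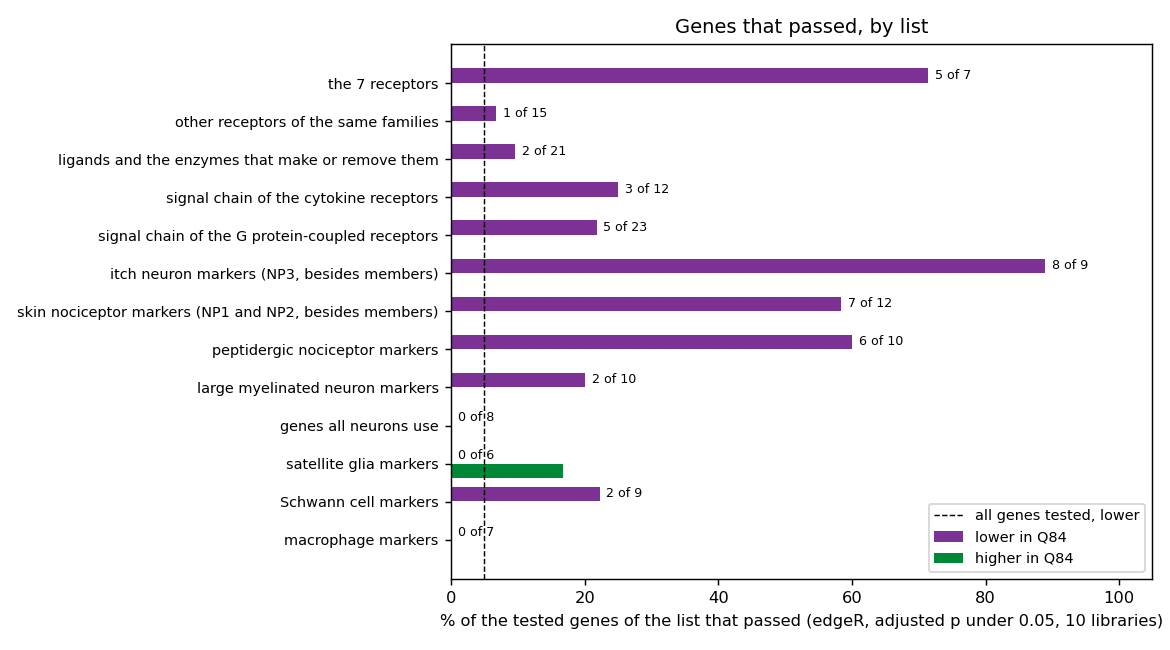
Share of the tested genes of each list that passed over the 10 libraries (edgeR, adjusted p under 0.05; horizontal axis in percent), lower in Q84 or higher in Q84, with the count lower beside each bar; the dashed line marks all genes tested, 4.93% lower. The 7 receptors (5 of 7) stand with the markers of itch, skin and peptidergic neurons (8 of 9, 7 of 12 and 6 of 10), and the other receptors of their families (1 of 15) stand near the dashed line.

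Markers of the neuron classes that carry these receptors were lower as well. For all marker lists the reference is the 4.93% of all genes called lower over the 10 libraries (edgeR), and 1.52% higher. At an unadjusted p under 0.05 it is 12.2% lower and 20.2% in either direction. For DESeq2 it is 7.24% lower and 3.09% higher. Among markers of NP3 itch neurons other than the members, 8 of 9 were lower over the 10 libraries, with a median log2 fold change of -0.92, and their summed level was 101 to 136 CPM in Q84 and 158 to 234 CPM in WT. It was 278 CPM in Q84 female 5 and 190 CPM in WT female 2. Much of that sum comes from Npy2r and Pou4f1, the second a factor of sensory neurons in general. The sum is thus not a level of NP3 neurons alone. Pou4f1 and Npy2r had 54.9 and 34.7 CPM in WT male 1, 24.8 and 31.1 CPM in Q84 male 1, and 95.9 and 69.3 CPM in Q84 female 5. For skin nociceptors of the NP1 and NP2 classes 7 of 12 were lower, with a median of -0.94 and a sum of 1171 to 1304 CPM in Q84 and 1387 to 2179 CPM in WT. Of peptidergic nociceptor markers 6 of 10 were lower, with a median of -0.58.

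Large myelinated neurons had 2 of 10 markers lower, with a median of -0.32. Their sum over the 10 libraries was 1811 to 2335 CPM in Q84 and 2346 to 2974 CPM in WT, ranges that almost touch. For sums of lists no share over all genes was computed. Q84 female 5 had 3701 CPM and WT female 2 had 2713 CPM. Of 8 genes that all neurons use, 0 passed (edgeR), 1 was lower at an unadjusted p under 0.05 and DESeq2 called 0, with a median of -0.13. No marker of any list of other cells was at 0 in all libraries. Of 9 Schwann cell markers 2 were lower, of 6 satellite glia markers 1 was higher, of 6 fibroblast markers 1 was higher, and of 7 endothelial and mural markers 1 was lower. The Schwann cell, satellite glia and fibroblast medians were 0.20, -0.15 and 0.38. At an unadjusted p under 0.05, 3 fibroblast markers were higher and 0 lower, and 3 endothelial and mural markers were higher and 1 lower. DESeq2 called 2 fibroblast markers higher, and 1 endothelial or mural marker higher and 1 lower. The endothelial and mural markers summed to 211 to 260 CPM in Q84 and 377 to 559 CPM in WT, though their median log2 fold change was 0.40. Q84 female 5 had 521 CPM of them and WT female 2 had 332 CPM. Of 7 macrophage markers 0 passed, 2 being higher at an unadjusted p under 0.05 and DESeq2 calling 0. The 7 mast cell markers, of the cells that release histamine and tryptase, summed to 8.43 to 11.7 CPM in Q84 and 7.43 to 11.8 CPM in WT, and 0 passed, with 1 lower at an unadjusted p under 0.05 and 0 called by DESeq2.

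Genes of tissue outside the ganglion differed between single libraries. Of 6 skin epithelium markers 3 were lower, with a sum of 4.48 to 6.50 CPM in Q84 and 4.25 to 196 CPM in WT, the highest being WT female 1. Fat and muscle markers summed to 2.99 to 492 CPM in Q84 and 3.05 to 132 CPM in WT, and red blood cell genes to 462 to 1826 CPM in Q84 and 173 to 1033 CPM in WT. Of the 6 and 5 genes 0 passed (edgeR), 2 and 5 were higher at an unadjusted p under 0.05, and DESeq2 called 1 of each list higher. Over these 10 libraries 20.2% of all genes had an unadjusted p under 0.05 in either direction, and DESeq2 called 3.09% higher. The part of such outside tissue in the levels of the receptors was not tested. Over 12 libraries 0 genes of any of these marker lists passed by edgeR. At an unadjusted p under 0.05, 7 of 9 NP3, 5 of 12 skin nociceptor and 6 of 10 peptidergic markers were lower there, beside 8.56% of all genes. DESeq2 called 2, 2 and 4 of them lower, beside 2.41% of all genes. Their median log2 fold changes were -0.67, -0.59 and -0.46.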

How the data were processed

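RNA of dorsal root ganglia was selected for poly(A) tails and sequenced, as the labels' protocols say. The submitters' processing notes name kallisto 0.46.2, STAR 2.7.10b and the build GRCm39, without their roles. The sources used here give neither the transcript release nor the handling of strand, so reads of overlapping antisense genes cannot be told apart. Per the file headers, the authors deposited estimated counts, effective lengths and TPM for 116313 transcripts per library. In the deposited tables the estimated counts are unscaled, while TPM is scaled by the authors' tool to effective length and to 1 total.

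Transcripts were matched to genes by identifier in GENCODE M21 (98.3% matched; the rest, 0.751 to 0.804% of counts, were left out). This annotation is of GRCm38, another build than that of the files, so coordinates are given only for the RefSeq promoter windows, on GRCm38.p6. Per gene, the estimated counts were summed, rounded, filtered with filterByExpr, scaled with TMM and tested with edgeR 4.0.16 (quasi-likelihood, robust, sex and genotype, Benjamini-Hochberg, 0.05). CPM use TMM over all 12 libraries, and log2 CPM a prior count of 2. TPM were summed over transcripts to compare genes. DESeq2 1.42.0, limma-voom (limma 3.58.1), other scaling and filters, and each library left out were alternatives.

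The members, lists and rules were chosen with earlier results of these data known. By rule, all members, all tested receptors of their families, genes of the pathway lists that passed, and the 3 genes most correlated with each member are named.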

Additional observations from a re-analysis of the deposited data

Results flagged for a closer look

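Among the 6 libraries labelled Q84, Q84 female 5 stood far above the others for 4 of the 7 receptors. Its level was 19.8 CPM for Il31ra, 24.3 CPM for Cysltr2, 81.6 CPM for Lpar3 and 3.88 CPM for Hrh1. Its gap to the next library made up 0.788, 0.731, 0.841 and 0.720 of the whole range of the group, above Dixon's 95% critical value for 6 libraries. Of 28 groups examined in this way 4 stood out. A rate of 1 in 20 by chance would hold for independent groups. These groups share libraries and their receptors are correlated, so no comparison with chance is drawn. All 4 concern the library whose Atxn3 transcript goes against its label.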

How the results depend on the processing

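Over 10 libraries the log2 fold changes of all 7 members stayed below 0 under every alternative run. The members called lower numbered 3 with a replicate block and 3 to 7 with each library left out, and 5 to 7 under the other alternatives. Genes called were 1933 with DESeq2, 701 with the block and 681 to 1978 with each library left out. Over 12 libraries members called were 3 with DESeq2, 1 without a sex term, 4 with the replicate block and 0 to 6 with each library left out, the 6 without Q84 female 5 and 1 (Lpar5) without WT male 1. Genes called there were 15 with total counts alone, 15 with no filter, 620 with DESeq2, 193 without a sex term, 0 in females only, 639 with the block and 0 to 1082 with each library left out. The replicate numbers were not taken as pairs. Deviations of same-numbered libraries correlated between -0.263 and 0.387. That range cannot decide whether they are pairs, because libraries of different number were not compared. With the block the calls of Lpar5 (edgeR adjusted p = 0.0908), Hrh1 (0.0695), Gna14 (0.0520), Prkcd (0.123) and Plpp2 (0.168) over 10 libraries were lost. Signs turned for some values that had not passed. For sex these were Lpar3 (0.033 with the block, -0.30 to 0.044 with each library left out), Hrh1 (0.034 with the block, -0.22 to 0.0081), F2rl1 (-0.10 with limma-voom, -0.014 with the block, -0.40 to 0.18) and Osmr (-0.017 to 0.21). For genotype over 12 libraries they were Cysltr1 (-0.0072 in females only, -0.13 with length-scaled TPM, -0.0065 to 0.28), Ltb4r2 (0.67 with limma-voom, 0.13 without a sex term, 0.052 with the block, -0.42 to 0.34) and Hrh3 (0.056 in females only, -0.94 to 0.052). Over 10 libraries they were Cysltr1 (-0.083) and Ltb4r2 (-0.67) with length-scaled TPM, and Ltb4r2 with each library left out (-0.48 to 1.10). The cause was not tested. F2rl1, Hrh1 and Lpar5 rest on 44 to 590 estimated counts per library, which limits their precision.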
